A study of Mus musculus with 7 samples.

Results

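DNA damage signalling and repair genes were followed in mouse gliomas that were grafted serially into immunodeficient mice. The genes were chosen by symbol, as the probes of an Affymetrix mouse array whose single gene symbol names a classical repair or checkpoint gene (Fanc, Brca, Rad, Xrcc, Msh, Mlh, Parp, Ercc and related names). The choice took 57 genes of the 18193 that had a probe with 1 symbol, and each was read by the probe that was brightest on average across 7 arrays. Of the 57, 55 lay above the filter on dim probes (a mean log2 value of 3.99, the 25th percentile of all probes) and were tested, and Rad51b and Rad54b did not. One match, Rad54l2, a chromatin remodeller related in sequence to Rad54l, shares the letters of a repair gene but is not classed under a repair pathway here.

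The tertiary gliomas (n = 3) came from cells of a secondary glioma grafted once more into NOD/SCID mice, and the secondary gliomas (n = 4) from cells of primary tumours grafted into NOD/SCID mice. All 7 samples share a C57/Bl6 tumour background and overexpression of the growth factor PDGF-B and the green fluorescent protein EGFP from 1 bicistronic transcript, and the primary tumours were of early onset and low grade. EGFP-positive cells were flow-sorted from tumours taken at the onset of symptoms, and their total RNA was amplified and hybridised, 1 array a sample. The labels call the samples biological replicates but give neither the donor tumour, the host's age nor the host's sex, so the p-values measure the spread between these samples. The scid allele of the hosts is a mutation of Prkdc, a gene of the set, so that host cells carry it, while the glioma cells have a C57/Bl6 background. The arrays had medians between 5.57 and 5.64 on the log2 scale, and their number limits the precision.

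Cells repair DNA by several routes, each suited to one kind of lesion. The kinases Atm and Atr sense breaks and stalled forks and signal through Chek2 and Chek1; homologous recombination and the Fanconi anaemia proteins rebuild broken or crosslinked DNA with the sister chromatid as a template; end joining ligates breaks without one. Mismatch repair removes replication errors, base excision repair removes small damaged bases, nucleotide excision repair removes bulky adducts, and Mgmt reverses alkylation directly, for which it is known in glioma as a source of resistance to temozolomide. Many genes of recombination, the Fanconi group and mismatch repair are transcribed mainly in late G1 and S phase, so that their mRNA is more abundant where more cells cycle.

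No gene of the set passed the test between the groups. With limma and Benjamini-Hochberg adjustment over 14453 genes, 0 of 55 were higher and 0 of 55 were lower at an adjusted p under 0.05, where 1.04% of all genes tested were called higher and 6.33% lower. At an unadjusted p under 0.05, 15 were higher and 2 were lower (27.3% and 3.64%), against 12.1% and 11.7% of all genes. The log2 fold change was above 0 in 46 of 55 (83.6%), against 60.6% of all genes, with a median of 0.34 over the 55 and of 0.09 over all genes tested. A p that misses the threshold does not show that the groups were alike, and the median standard error of the 55 differences was 0.23 on the log2 scale.

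Tertiary glioma 1 stood apart from tertiary gliomas 2 and 3. The mean over the 55 genes was 6.42, 7.10 and 6.96 in tertiary gliomas 1 to 3, against 6.48, 6.42, 6.44 and 6.54 in secondary gliomas 1 to 4. Tertiary glioma 1 was the lowest of its group in 38 of the 55 genes, against 39% of all genes tested. In 23 of the 55 (41.8%) tertiary gliomas 2 and 3 both lay above every secondary glioma while tertiary glioma 1 did not, against 14.2% of all genes. Without tertiary glioma 1, 14 of the 55 (25.5%) were called higher and 0 lower, where 5.4% and 7.44% of all genes were. These were Blm, Brca1, Brca2, Brip1, Chek1, Ercc8, Exo1, Fancd2, Fancm, Rad51ap1, Rad51c, Rad54l, Ung and Xrcc6, and leaving out any other sample called none. Tertiary glioma 1 was singled out by these same values, and the fit without it keeps only tertiary gliomas 2 and 3. The p-values and calls of that fit, here and below, are therefore descriptive. With array weights, 11 were called higher and 0 lower, where 4.62% and 8.75% of all genes were. The lowest weights were those of tertiary glioma 1 (0.38) and secondary glioma 3 (0.47).

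**Figure D1:**
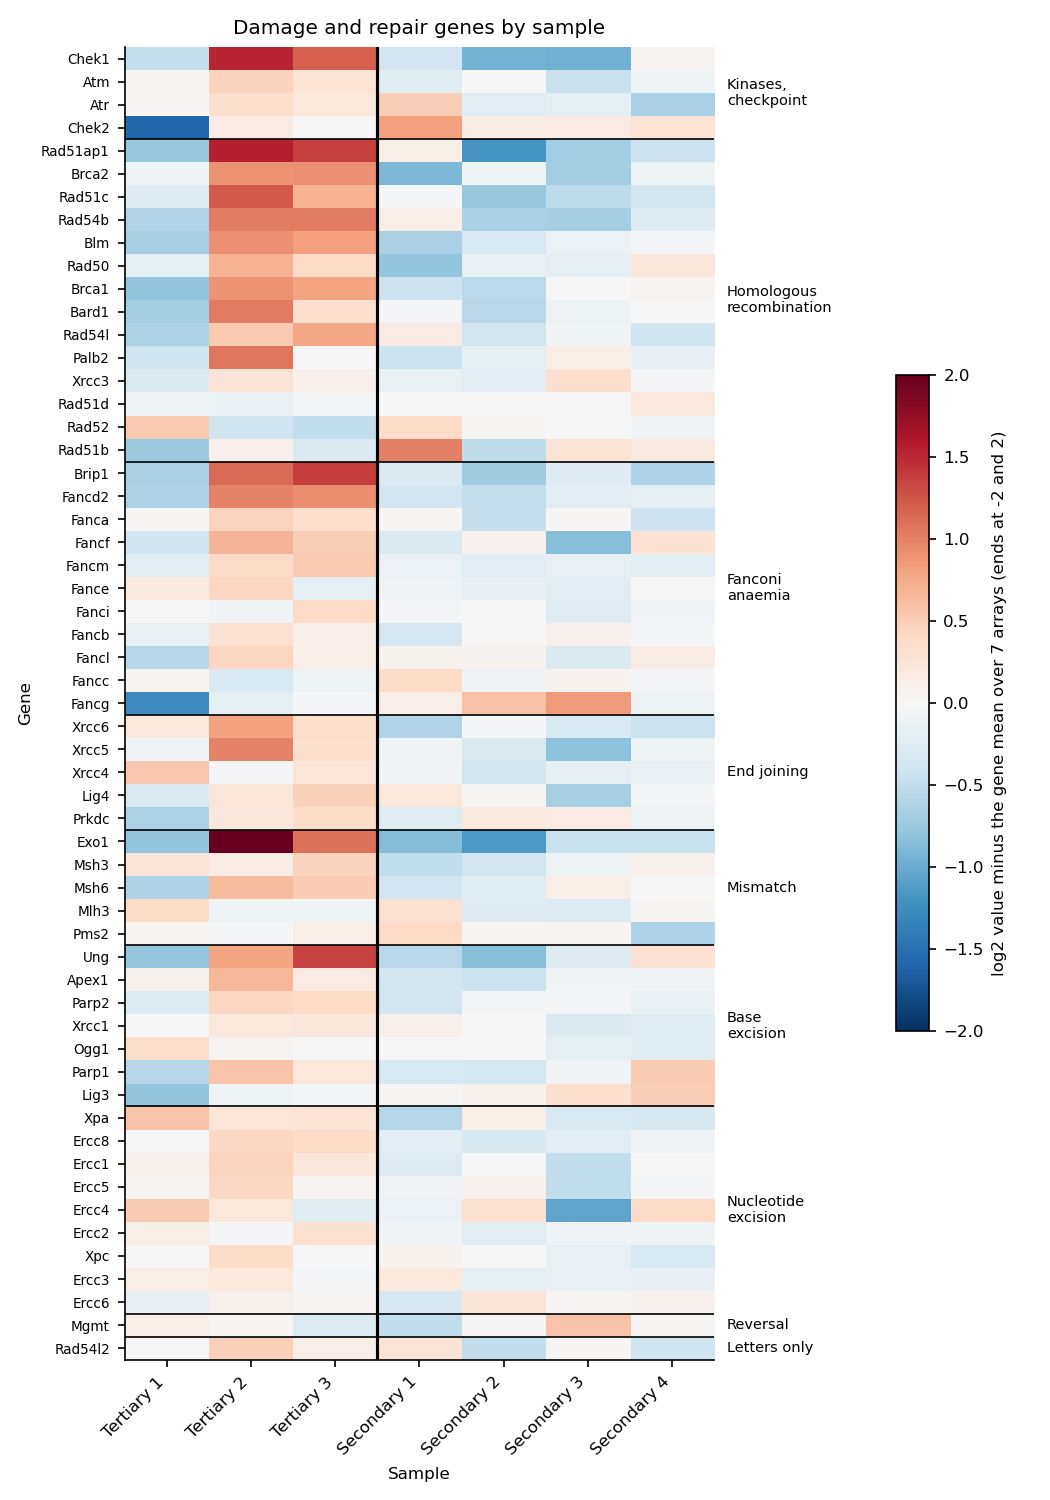
Heat map of the 57 genes (rows, by pathway and then by log2 fold change) in tertiary gliomas 1 to 3 and secondary gliomas 1 to 4 (columns), with the log2 value minus the gene's mean over the 7 arrays as colour, red above and blue below the mean and ending at 2 in either direction. Most rows of recombination and the Fanconi group are red in tertiary gliomas 2 and 3 and pale or blue in tertiary glioma 1.

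The microglia and macrophage markers moved with the groups. All 19 tested were called lower in tertiary gliomas, with a list mean between 6.15 and 7.06 on the log2 scale in tertiary gliomas and between 10.42 and 11.19 in secondary gliomas. Of 6 mature oligodendrocyte markers 2 were called lower (Mag and Mog), and none of 9 precursor and glioma, 7 astrocyte, 7 neuron, 6 endothelial and mural or 3 lymphocyte markers tested was called. The precursor and glioma markers had list means of 10.44, 10.16 and 10.35 in tertiary gliomas and 10.28, 10.09, 9.89 and 10.37 in secondary gliomas. In sorted bulk samples fewer cells of a type and less RNA per cell cannot be told apart, and what the lower microglial RNA adds to the differences below was not tested. The microglial mean was 6.71, 7.06 and 6.15 in tertiary gliomas 1 to 3, so tertiary glioma 1 lay between the other two. It was the highest tertiary sample in the astrocyte markers, with means of 7.52, 6.54 and 6.52 in tertiary gliomas and 8.25, 7.52, 7.32 and 7.19 in secondary gliomas. The same held for the mature oligodendrocyte markers, with means of 7.73, 6.92 and 6.94 in tertiary gliomas and 8.85, 8.40, 8.70 and 9.11 in secondary gliomas. The part of either list in the values of tertiary glioma 1 was not tested.

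Among the kinases, Atm was the one with separate groups. Atm had log2 values of 8.27, 8.69 and 8.51 in tertiary gliomas and of 8.0, 8.23, 7.79 and 8.14 in secondary gliomas, so that every tertiary value lay above every secondary one. Its log2 fold change was 0.45 ± 0.16 (SE), with an adjusted p of 0.152 in limma. A second, dimmer Atm probe gave 0.82 with an adjusted p of 0.00691 when every probe was tested on its own, and the mean of both Atm probes was at 0.63 and was called. Atr, which answers stalled replication forks, had values of 6.70, 7.02 and 6.88 in tertiary gliomas and of 7.16, 6.45, 6.48 and 6.02 in secondary gliomas, which overlapped through secondary glioma 1 (0.34 ± 0.26, adjusted p = 0.462).

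The checkpoint kinases downstream had log2 fold changes of opposite sign. Chek1, the effector of Atr, had log2 values of 6.10, 8.09 and 7.77 in tertiary gliomas and of 6.19, 5.62, 5.61 and 6.62 in secondary gliomas, high in tertiary gliomas 2 and 3 and within the secondary range in tertiary glioma 1. Its log2 fold change of 1.31 ± 0.49 (adjusted p = 0.160) became 1.92 ± 0.32 without tertiary glioma 1 (adjusted p = 0.0127). The Chek1 probe can bind related transcripts, but the other 2 Chek1 probes above the filter were at 0.90 and 1.59. Chek2, the effector of Atm, had values of 4.58, 6.31 and 6.15 in tertiary gliomas and of 6.97, 6.30, 6.31 and 6.43 in secondary gliomas, with tertiary glioma 1 far below the other 6. Its log2 fold change was -0.82 ± 0.41 (adjusted p = 0.271), and -0.27 without that sample.

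Homologous recombination held the largest group, with 12 genes tested, 10 of them with a log2 fold change above 0 and none called (median 0.46, and 0.83 without tertiary glioma 1). Brca2, a mediator of strand exchange, had the lowest p. Its log2 values were 5.46, 6.45 and 6.46 in tertiary gliomas and 4.64, 5.46, 4.86 and 5.46 in secondary gliomas, where tertiary glioma 1 was equal to secondary gliomas 2 and 4. The log2 fold change was 1.02 ± 0.32 (SE; adjusted p = 0.109), and 1.35 without tertiary glioma 1 (adjusted p = 0.0249).

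Brca1, the ubiquitin ligase that steers breaks toward recombination, had values of 5.69, 7.37 and 7.27 in tertiary gliomas and of 6.07, 5.95, 6.49 and 6.53 in secondary gliomas. The lowest and both of the highest values belonged to tertiary gliomas, and the log2 fold change of 0.52 ± 0.41 (adjusted p = 0.475) became 1.06 without tertiary glioma 1 (adjusted p = 0.0233). A Brca1 probe of nearly the same brightness was at 0.90, and the dimmer ones above the filter were at 1.12 and 0.11. Bard1, the partner of Brca1, had values of 5.15, 6.87 and 6.14 in tertiary gliomas and of 5.80, 5.27, 5.72 and 5.82 in secondary gliomas, lowest in tertiary glioma 1 and highest in tertiary glioma 2 (0.40 ± 0.37). Palb2, the bridge between Brca1 and Brca2, was high in tertiary glioma 2 alone, at 4.91, 6.37 and 5.30 in tertiary gliomas against 4.88, 5.12, 5.44 and 5.14 in secondary gliomas (0.38 ± 0.33).

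Rad51ap1 and Rad51c were high in the same tertiary gliomas. Rad51ap1, which stimulates strand invasion, had values of 4.51, 6.81 and 6.62 in tertiary gliomas and of 5.37, 4.08, 4.57 and 4.85 in secondary gliomas (log2 fold change 1.26 ± 0.57, or 2.00 without tertiary glioma 1). Rad51c, which acts in recombination, had values of 5.97, 7.45 and 6.93 in tertiary gliomas and of 6.20, 5.46, 5.72 and 5.86 in secondary gliomas (log2 fold change 0.97 ± 0.34, adjusted p = 0.142). In both genes tertiary gliomas 2 and 3 lay above all secondary gliomas and tertiary glioma 1 among them. A dimmer Rad51c probe was at 1.38 with an adjusted p of 0.0460 on its own.

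The helicase Blm, which dissolves recombination intermediates, was at 0.63, the translocase Rad54l at 0.39 and Rad50, a subunit of the complex that trims breaks, at 0.54 on the log2 fold change scale, each with tertiary gliomas 2 and 3 above every secondary glioma. Blm and Rad54l were called without tertiary glioma 1, at 1.14 and 0.81. Rad52, an annealing factor, had a log2 fold change below 0, with values of 9.39, 8.47 and 8.37 in tertiary gliomas and of 9.25, 8.89, 8.87 and 8.81 in secondary gliomas (log2 fold change -0.22 ± 0.26, or -0.54 without tertiary glioma 1). Rad51d, another recombination gene, was at -0.12 ± 0.12, with all tertiary values below all secondary ones by a small margin, and Xrcc3 at 0.03 ± 0.19. Below the dim filter, Rad54b had values of 2.75, 4.37 and 4.37 in tertiary gliomas against 3.47, 2.70, 2.66 and 3.08 in secondary gliomas, and Rad51b had 2.82, 3.66 and 3.28 in tertiary gliomas against 4.57, 3.06, 3.84 and 3.74 in secondary gliomas.

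Of the 11 Fanconi anaemia and crosslink repair genes, 9 had a log2 fold change above 0 and none was called (median 0.26). Brip1, the helicase that binds Brca1, had log2 values of 4.50, 6.28 and 6.53 in tertiary gliomas and of 4.86, 4.43, 4.88 and 4.52 in secondary gliomas. Fancd2, whose ubiquitylated form marks crosslinks for repair, had values of 4.27, 5.89 and 5.82 in tertiary gliomas and of 4.51, 4.42, 4.66 and 4.70 in secondary gliomas. For both, tertiary gliomas 2 and 3 stood more than 1 unit above every secondary glioma, and tertiary glioma 1 lay at the low end of all 7 samples. The log2 fold changes were 1.10 ± 0.46 (adjusted p = 0.196) and 0.76 ± 0.38 (adjusted p = 0.266), and without tertiary glioma 1 they were 1.73 ± 0.19 (adjusted p = 0.00241) and 1.28 ± 0.14 (adjusted p = 0.00257).

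The subunits of the core complex that ubiquitylates Fancd2 had log2 fold changes of either sign. Fanca had values of 6.83, 7.25 and 7.16 in tertiary gliomas and of 6.82, 6.34, 6.83 and 6.39 in secondary gliomas (log2 fold change 0.48 ± 0.19, adjusted p = 0.172), the lowest p of the group. Fancg had values of 6.40, 7.48 and 7.64 in tertiary gliomas and of 7.79, 8.24, 8.51 and 7.57 in secondary gliomas (log2 fold change -0.85 ± 0.35, adjusted p = 0.191), the most negative of the set, with tertiary glioma 1 lowest of all. Without tertiary glioma 1 Fancg was at -0.46. The other subunits and the translocase Fancm were at 0.44 (Fancf), 0.40 (Fancm), 0.26 (Fance), 0.15 (Fancb), 0.00 (Fancl, the ligase subunit) and -0.19 (Fancc). Fanci, which pairs with Fancd2, was at 0.20 ± 0.15, with values of 8.25, 8.21 and 8.66 in tertiary gliomas and of 8.22, 8.27, 8.02 and 8.20 in secondary gliomas.

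**Figure D2:**
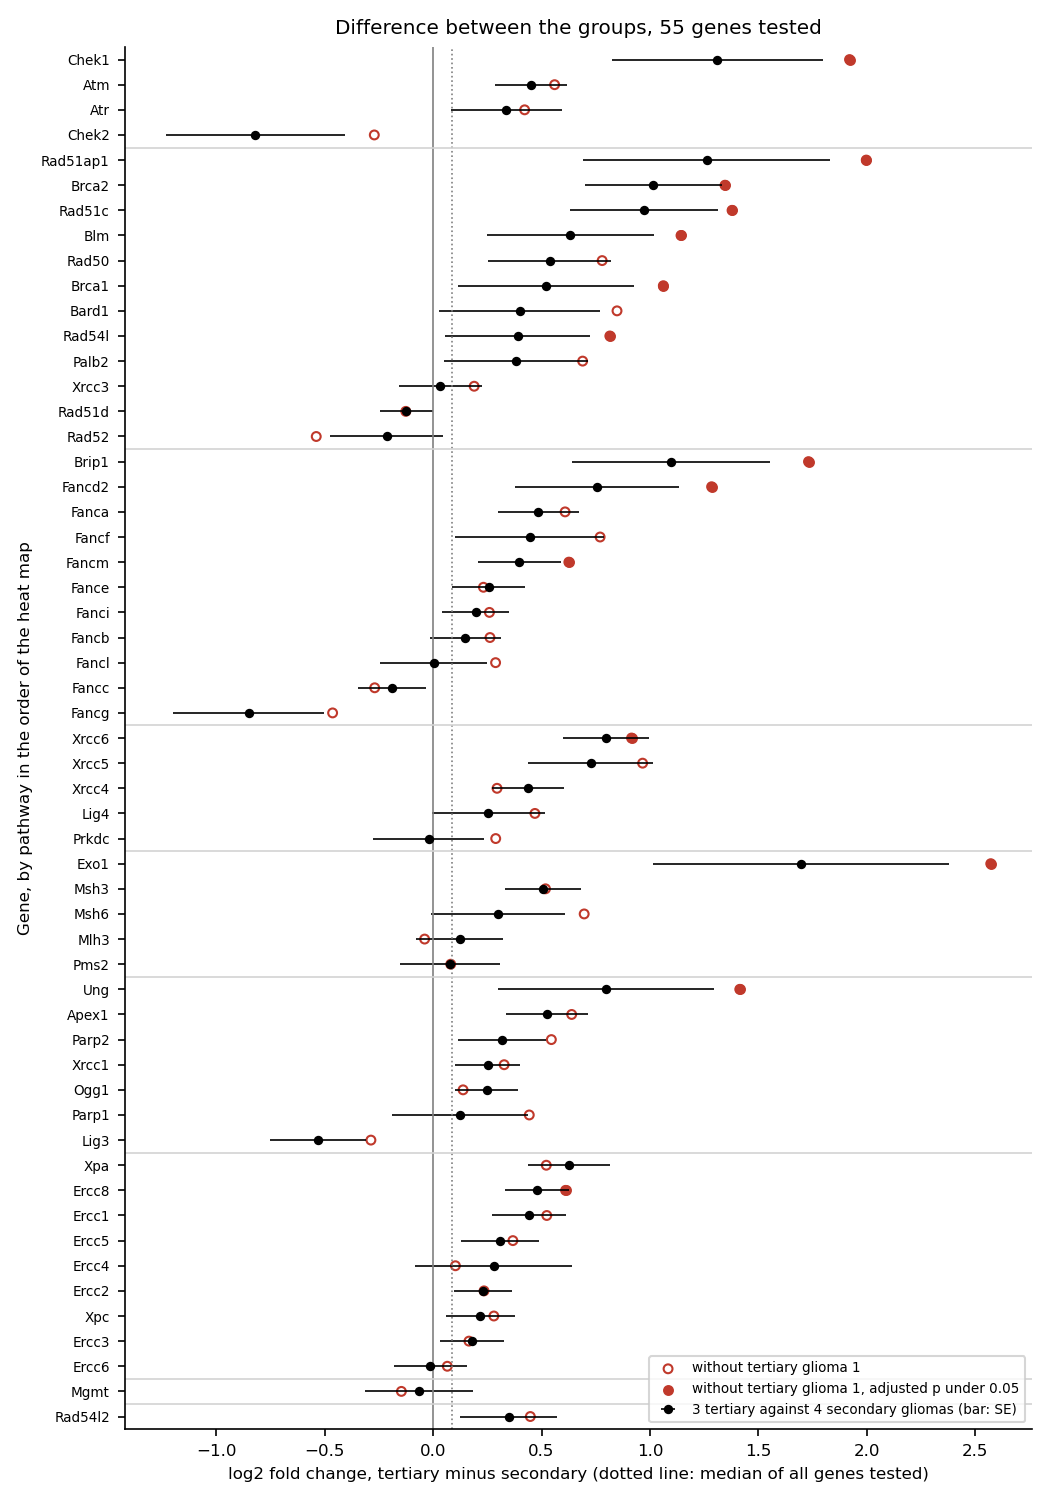
Log2 fold change, tertiary minus secondary glioma, of the 55 genes tested, by pathway; black points and bars are the estimate and its standard error from all 7 samples, red circles the estimate without tertiary glioma 1, filled where the adjusted p was then under 0.05. The filled circles, 14 in all, lie at positive values between 0.61 (Ercc8) and 2.57 (Exo1).

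End joining gave the gene closest to the threshold. Xrcc6, the smaller subunit of the Ku dimer that caps broken ends, had log2 values of 7.37, 7.96 and 7.50 in tertiary gliomas and of 6.55, 7.14, 6.84 and 6.72 in secondary gliomas. All tertiary values lay above all secondary ones, and the log2 fold change was 0.80 ± 0.20 (SE, n = 3 and 4; adjusted p = 0.0553 in limma). A second, dimmer Xrcc6 probe was at 0.19. The adjusted p was under 0.05 with a dim filter at the 50th percentile, with quantile normalization or median centring, with array weights and without tertiary glioma 1, and up to 0.173 when another sample was left out.

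Xrcc5, the larger Ku subunit, had values of 7.37, 8.42 and 7.75 in tertiary gliomas and of 7.37, 7.15, 6.61 and 7.35 in secondary gliomas, where tertiary glioma 1 equalled the highest secondary samples to within 0.02 (log2 fold change 0.73 ± 0.29, adjusted p = 0.179). Xrcc4, the scaffold of the ligase, had values of 7.24, 6.68 and 6.94 in tertiary gliomas and of 6.66, 6.34, 6.53 and 6.55 in secondary gliomas, separate by a small margin and highest in tertiary glioma 1 (0.44 ± 0.17, adjusted p = 0.167). Its ligase Lig4 was at 0.25 ± 0.26. Prkdc, the catalytic kinase that Ku recruits and the gene mutated in the scid hosts, had values of 5.49, 6.34 and 6.49 in tertiary gliomas and of 5.88, 6.31, 6.29 and 6.03 in secondary gliomas (log2 fold change -0.02 ± 0.26, adjusted p = 0.972). The lowest and the highest Prkdc value both belonged to tertiary gliomas, and whether the probe read host and tumour transcripts alike was not tested.

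In mismatch repair all 5 genes tested had a log2 fold change above 0 and none was called (median 0.30). Msh3, which recognises insertion and deletion loops, had log2 values of 6.54, 6.42 and 6.74 in tertiary gliomas and of 5.79, 5.91, 6.18 and 6.36 in secondary gliomas, with no overlap (0.50 ± 0.18, adjusted p = 0.137). A dimmer Msh3 probe was at 1.12 with an adjusted p of 0.0427 on its own, and the mean over the Msh3 probes, at 0.63, was called. Exo1, the exonuclease that removes the mismatched strand, had the largest log2 fold change of the 55, at 1.70 ± 0.68 (adjusted p = 0.186), and between 0.89 and 2.57 when 1 sample was left out. A second, dimmer Exo1 probe was at 0.92. On the brighter Exo1 probe the values were 4.52, 7.89 and 6.41 in tertiary gliomas and 4.43, 4.15, 4.86 and 4.86 in secondary gliomas, and tertiary gliomas 2 and 3 alone were above 5 on the log2 scale. Msh6, which recognises base mismatches, was at 0.30 ± 0.31, and the MutL subunits Mlh3 and Pms2 were at 0.12 ± 0.20 and 0.08 ± 0.23.

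In base excision and single-strand break repair 6 of 7 genes had a log2 fold change above 0 and none was called (median 0.25). Apex1, the endonuclease that cuts at abasic sites, had log2 values of 9.29, 9.88 and 9.39 in tertiary gliomas and of 8.86, 8.79, 9.17 and 9.17 in secondary gliomas, with no overlap (0.52 ± 0.19, adjusted p = 0.151); its probe can bind related transcripts. The uracil glycosylase Ung had values of 7.07, 8.64 and 9.20 in tertiary gliomas and of 7.29, 7.0, 7.59 and 8.14 in secondary gliomas, high in tertiary gliomas 2 and 3 and low in tertiary glioma 1 (0.80 ± 0.50, or 1.41 and called without that sample). Parp1, which marks strand breaks with poly(ADP-ribose), had values of 8.02, 9.17 and 8.80 in tertiary gliomas and of 8.29, 8.24, 8.53 and 9.10 in secondary gliomas, the secondary range inside the tertiary one (0.12 ± 0.31, adjusted p = 0.849). Of the 4 Parp1 probes above the filter 3 had a positive sign, between 0.12 and 0.56, and the dimmest was at -0.76. Parp2, the scaffold Xrcc1 and the glycosylase Ogg1 were at 0.32, 0.25 and 0.25.

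Lig3, the ligase that seals the nick, depended on the probe. On the brightest Lig3 probe the values were 6.63, 7.33 and 7.40 in tertiary gliomas and 7.45, 7.49, 7.76 and 7.91 in secondary gliomas, all tertiary below all secondary (-0.53 ± 0.22, adjusted p = 0.200). The other 4 Lig3 probes above the filter had positive log2 fold changes of 0.56, 0.56, 0.55 and 0.34, and the mean over the Lig3 probes was at 0.30. Of the 36 genes of the set with more than 1 probe above the filter, 27 had 1 sign on all of them and 9 had both signs. Besides Lig3, Xpa and Parp1, these 9 were Ercc5, Fancc, Fancl, Rad51d, Rad52 and Xrcc3.

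In nucleotide excision repair tertiary glioma 1 lay with the other tertiary gliomas. Of the 9 genes 8 had a log2 fold change above 0 and none was called (median 0.28, and 0.28 without tertiary glioma 1). The pathway mean was 6.54, 6.65 and 6.51 in tertiary gliomas and 6.24, 6.40, 6.07 and 6.34 in secondary gliomas, with no overlap. This was not particular to nucleotide excision repair. The end joining mean did not overlap either (lowest tertiary 6.505, in tertiary glioma 1, and highest secondary 6.461). In 3 of the 5 end joining genes, however, tertiary gliomas 2 and 3 alone lay above the secondary gliomas. The means of the other pathways of the set overlapped. In 4 of the 9 (Ercc1, Ercc2, Ercc8 and Xpa) all tertiary values lay above all secondary values, where 10.8% of all genes tested did so. In none of the 9 did tertiary gliomas 2 and 3 alone lie above the secondary gliomas, an order that 14.2% of all genes tested showed. So few genes cannot be set apart from that share.

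Xpa, which verifies the lesion, had log2 values of 7.33, 7.0 and 7.03 in tertiary gliomas and of 6.18, 6.89, 6.46 and 6.43 in secondary gliomas, highest in tertiary glioma 1 (0.63 ± 0.19, adjusted p = 0.101). Of the other Xpa probes one was at -0.26 and one at 0.58. Ercc8, which acts in repair at polymerases stalled at damage, had values of 6.19, 6.60 and 6.58 in tertiary gliomas and of 5.96, 5.86, 5.98 and 6.11 in secondary gliomas (0.48 ± 0.15, adjusted p = 0.107). Ercc1, the partner of the nuclease Ercc4, had values of 8.31, 8.67 and 8.45 in tertiary gliomas and of 7.97, 8.22, 7.73 and 8.23 in secondary gliomas (0.44 ± 0.17, adjusted p = 0.173), on a probe that can bind related transcripts. The Xpa difference was 1.54-fold, the largest of the 9.

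None of the remaining excision genes had an unadjusted p under 0.05. Xpc, which senses distorted DNA first, had values of 5.70, 6.07 and 5.69 in tertiary gliomas and of 5.77, 5.70, 5.55 and 5.39 in secondary gliomas (0.22 ± 0.16, adjusted p = 0.443). The helicases Ercc2 and Ercc3 were at 0.23 ± 0.13 and 0.18 ± 0.15, the nucleases Ercc4 and Ercc5 at 0.28 ± 0.36 and 0.31 ± 0.18, and Ercc6, the remodeller that works with Ercc8, at -0.01 ± 0.17. Mgmt, the methyltransferase that works alone in direct reversal, had values of 5.33, 5.24 and 4.93 in tertiary gliomas and of 4.71, 5.22, 5.78 and 5.22 in secondary gliomas, the tertiary range inside the secondary one (-0.06 ± 0.25, adjusted p = 0.902). Rad54l2 was at 0.35 ± 0.22, with values of 6.05, 6.52 and 6.18 in tertiary gliomas and of 6.31, 5.56, 6.08 and 5.65 in secondary gliomas.

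**Figure D3:**
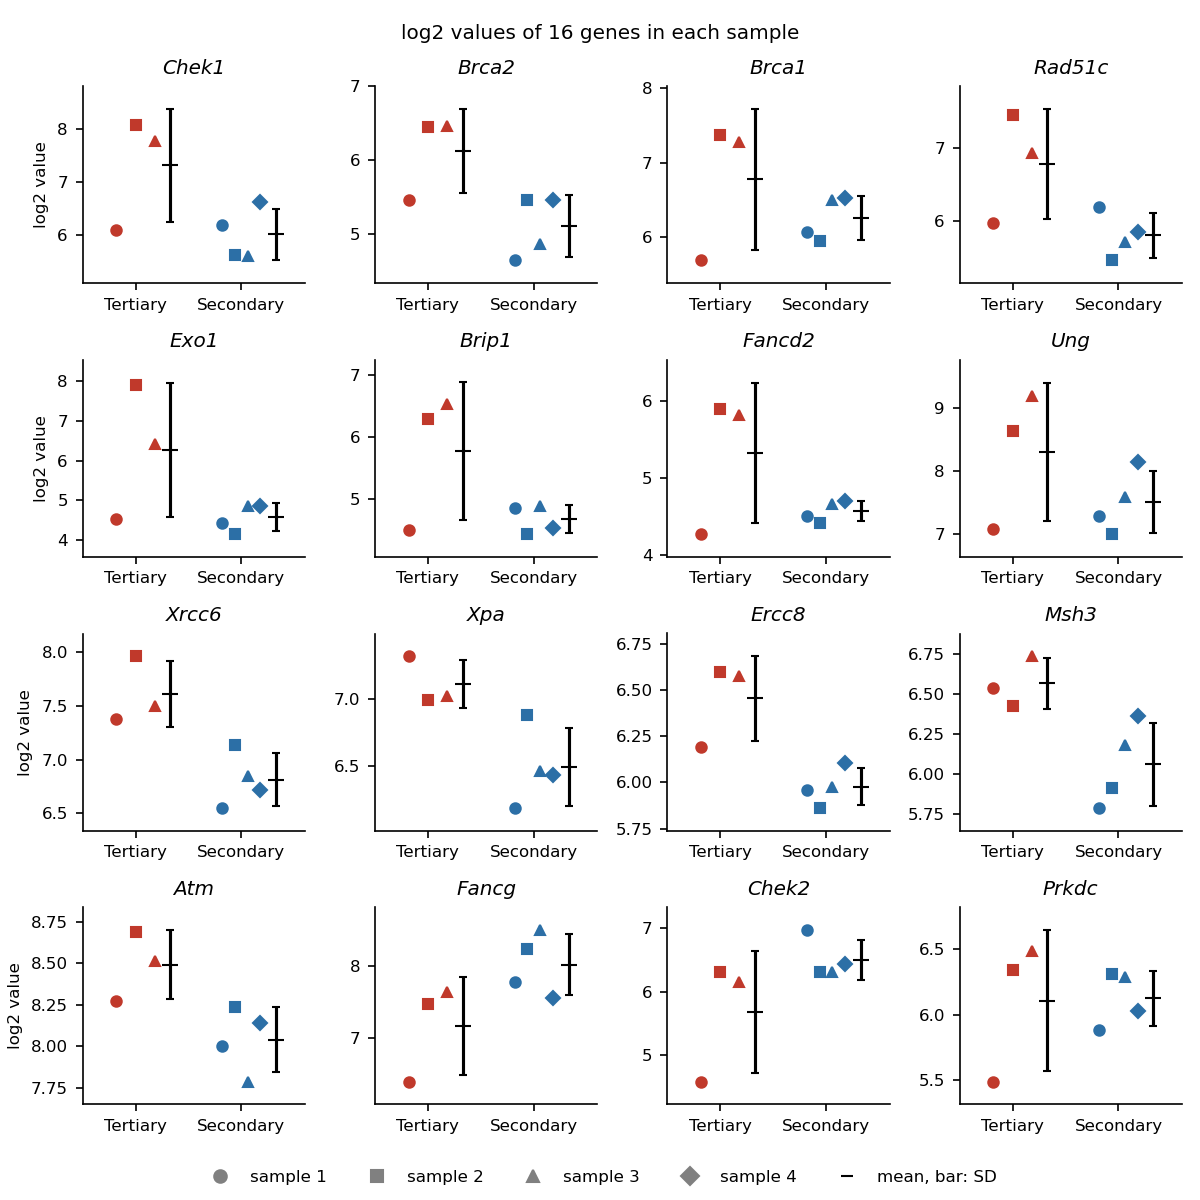
Log2 values of 16 genes in each sample, tertiary gliomas in red left of secondary gliomas in blue, with mean and SD in black. The marker's shape gives the sample number, which was not taken to pair samples. In the first 2 rows tertiary gliomas 2 and 3 lie above the secondary gliomas and tertiary glioma 1 does not, while in Xrcc6, Xpa, Ercc8, Msh3 and Atm all 3 tertiary gliomas lie above.

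Across the whole set, 9 genes had all tertiary values above all secondary values (16.4%, against 10.8% of all genes tested) and 2 had all below (3.64%, against 11.2%). The 9 were Apex1, Atm, Ercc1, Ercc2, Ercc8, Msh3, Xpa, Xrcc4 and Xrcc6, and the 2 were Lig3 and Rad51d. None of the 9 belongs to the replication-linked genes, a list of 16 of the 57 known to be transcribed mainly in late G1 and S phase (Bard1, Blm, Brca1, Brca2, Brip1, Chek1, Exo1, Fanca, Fancb, Fancd2, Fanci, Msh6, Rad51ap1, Rad54b, Rad54l and Ung). All 15 of these that were tested had a log2 fold change above 0, with a median of 0.63, and in 14 of the 15 tertiary gliomas 2 and 3 alone exceeded the secondary gliomas. The other 40 genes tested had a median of 0.25 and showed that order in 9. Without tertiary glioma 1, 10 of the 15 and 4 of the 40 were called higher, against 5.4% of all genes. The list was drawn up with earlier results of these data known, so the contrast between the 15 and the 40 is a description and no test.

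Genes of DNA replication and of mitosis were high in the same samples. The mean over the 15 replication-linked genes was 5.73, 7.18 and 7.05 in tertiary gliomas and 5.90, 5.71, 5.98 and 6.08 in secondary gliomas. The mean over 29 replication genes outside the set was 6.46, 7.97 and 7.80 in tertiary gliomas and 6.79, 6.46, 6.80 and 7.07 in secondary gliomas, and that over 23 mitosis genes was 6.31, 8.45 and 8.65 in tertiary gliomas and 7.35, 6.52, 6.91 and 7.47 in secondary gliomas. In each of the 3 lists tertiary gliomas 2 and 3 were the highest of the 7 samples, and tertiary glioma 1 lay within or below the secondary range. None of the replication and none of the mitosis genes was called, with Orc6, a subunit of the origin recognition complex, at 0.81 ± 0.23 (adjusted p = 0.0805) and Ndc80, a kinetochore protein, at 1.16 ± 0.45 (adjusted p = 0.173). At an unadjusted p under 0.05, 9 of the 29 and 1 of the 23 were higher, against 12.1% of all genes. Without tertiary glioma 1, 19 of the 29 and 17 of the 23 were called higher, against 5.4% of all genes. What the share of cycling cells adds to the values of the repair genes was not tested.

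**Figure D4:**
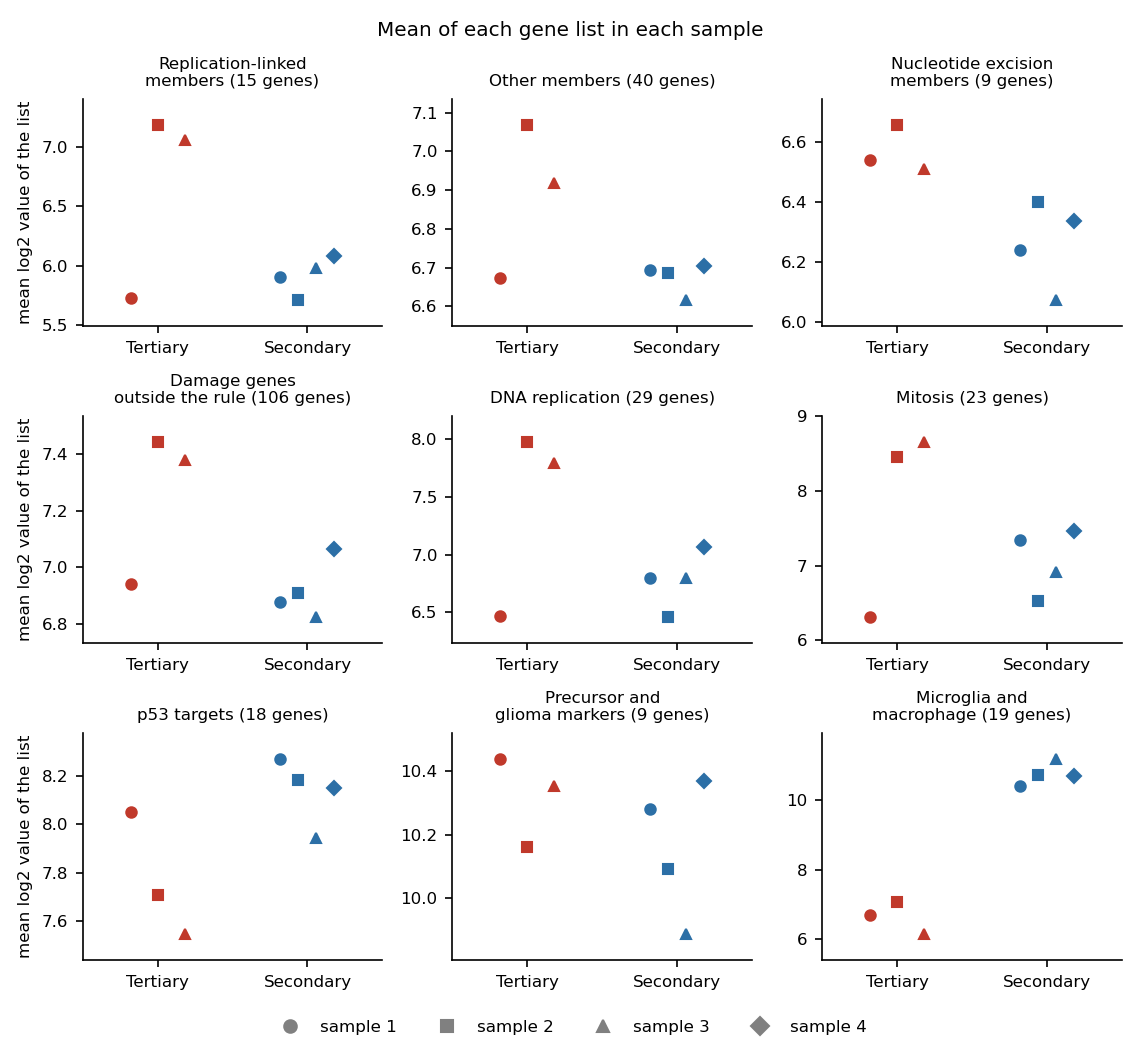
Mean log2 value of the tested genes of 9 lists in each sample, tertiary gliomas in red left of secondary gliomas in blue, with the sample number as the marker's shape and a separate vertical scale in each panel. Replication-linked repair genes, DNA replication and mitosis share 2 high tertiary samples and 1 low one, while the nucleotide excision genes are higher and the microglial markers lower in all 3 tertiary gliomas.

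Promoters of the set were searched for some of the letters bound by E2F factors, which switch on replication genes, since the replication-linked genes were high in the same samples. Other forms of E2F site were not searched, so a window without a match may still hold one. The search looked for TTTCGCGC, TTTGGCGC and TTTCCCGC on both strands in RefSeq windows of build GRCm38.p6 that reach from 250 bases before to 50 after a start site. Windows were found for 48 of the 57 genes, and 8 of the 48 (16.7%) held at least 1 of the octamers in a window, against 3.73% of 11582 genes tested that had a window. They were in 3 of 13 replication-linked genes (Bard1, Brca2 and Msh6) and in 5 of 35 others (Chek2, Fancg, Msh3, Rad51c and Xrcc6). CCAAT was in 29 of the 48 windows (60.4%, against 42.2% of genes tested) and TTTGAA in 3 (6.25%, against 14.4%). A match is a description of the letters only, and the motifs were chosen after the values had been seen.

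The windows below show the letters, in capitals, in Brca2, Rad51c, Xrcc6 and Msh3 and in Fancg, the most negative gene. The first 4 are among the genes with the letters whose log2 fold change was positive in every fit that left out a sample. Msh6 was another (between 0.068 and 0.70), and its window is not shown. The Brca2 window is chr5:150522371-150522670 on the plus strand, that of 1 of the Rad51c starts chr11:87404457-87404756 on the minus strand and that of Xrcc6 chr15:82016119-82016418 on the plus strand. The Msh3 window is chr13:92354954-92355253 on the minus strand, where 2 octamers overlap on opposite strands, and that of Fancg is chr4:43010252-43010551 on the minus strand. Sequences run 5′ to 3′ on the gene's own strand.
Brca2: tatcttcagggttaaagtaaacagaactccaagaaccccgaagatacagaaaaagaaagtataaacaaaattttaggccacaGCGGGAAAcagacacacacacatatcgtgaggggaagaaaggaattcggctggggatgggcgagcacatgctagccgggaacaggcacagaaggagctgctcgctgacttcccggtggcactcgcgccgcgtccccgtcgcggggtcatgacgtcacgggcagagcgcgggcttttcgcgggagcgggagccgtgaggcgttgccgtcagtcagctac
Rad51c: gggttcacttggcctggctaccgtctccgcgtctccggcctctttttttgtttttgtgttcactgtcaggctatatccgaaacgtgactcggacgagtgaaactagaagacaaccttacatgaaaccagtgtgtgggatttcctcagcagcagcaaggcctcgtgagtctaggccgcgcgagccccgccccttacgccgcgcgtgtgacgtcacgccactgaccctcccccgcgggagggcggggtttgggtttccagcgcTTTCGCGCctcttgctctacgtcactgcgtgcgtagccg
Xrcc6: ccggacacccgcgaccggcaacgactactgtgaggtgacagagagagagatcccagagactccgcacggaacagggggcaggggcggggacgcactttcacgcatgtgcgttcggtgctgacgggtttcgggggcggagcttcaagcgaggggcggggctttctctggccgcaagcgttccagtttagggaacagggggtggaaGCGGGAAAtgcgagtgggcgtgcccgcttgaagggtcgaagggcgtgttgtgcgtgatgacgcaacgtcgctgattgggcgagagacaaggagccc
Msh3: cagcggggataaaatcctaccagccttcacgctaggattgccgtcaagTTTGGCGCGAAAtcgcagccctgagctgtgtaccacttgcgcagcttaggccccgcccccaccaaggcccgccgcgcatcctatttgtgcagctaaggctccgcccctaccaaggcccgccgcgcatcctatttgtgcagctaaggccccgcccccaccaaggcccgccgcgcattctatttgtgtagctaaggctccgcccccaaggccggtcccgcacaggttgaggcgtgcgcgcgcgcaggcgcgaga
Fancg: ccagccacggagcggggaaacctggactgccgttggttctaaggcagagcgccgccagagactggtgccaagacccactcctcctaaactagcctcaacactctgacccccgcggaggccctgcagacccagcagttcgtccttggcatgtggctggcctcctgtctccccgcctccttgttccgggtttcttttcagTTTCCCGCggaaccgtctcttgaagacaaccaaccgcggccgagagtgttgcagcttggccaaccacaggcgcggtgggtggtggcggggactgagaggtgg
In Xrcc6 and Fancg the letters began 46 and 52 bases before the start, in Brca2 168 and in Msh3 202 and 198 bases before it, and in the Rad51c window 11 bases after it.

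Damage genes that the symbols above do not cover were read the same way. A list of 119 further genes of the same pathways had 106 with a probe above the filter, and 1 was called, Rfc1, the large subunit of the clamp loader, which was higher, where 1.04% of all genes tested were. Rfc1 had log2 values of 8.62, 8.73 and 8.67 in tertiary gliomas and of 8.05, 8.33, 7.88 and 8.02 in secondary gliomas (0.60 ± 0.14, adjusted p = 0.0439). Its adjusted p was up to 0.146 when 1 sample was left out, and none of the 106 was called without tertiary glioma 2 or without secondary glioma 1, 3 or 4. The log2 fold change was above 0 in 90 of the 106 (median 0.34), against 60.6% of all genes. Without tertiary glioma 1, 20 were called higher and 1 lower, where 5.4% and 7.44% of all genes were.

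By pathway, these further genes had medians of 0.41 for 22 sensors, mediators and checkpoint genes and 0.28 for 29 crosslink and recombination genes. The medians were 0.40 for 21 mismatch and base excision genes, 0.35 for 15 nucleotide excision genes, 0.42 for 14 lesion bypass and alkyl reversal genes and -0.12 for 5 end joining genes. The genes with the lowest p in each were Rpa3, a subunit of the single-strand binding complex (0.94 ± 0.26), the bypass polymerase scaffold Rev1 (0.54 ± 0.16), the damage sensor Ddb2 (-0.71 ± 0.22), the gap-filling polymerase Polm (-0.41 ± 0.13) and Rif1, which restrains resection (0.77 ± 0.25). Their adjusted p lay between 0.0764 (Rpa3) and 0.124 (Rif1), none past the threshold. Ddb2 had values of 9.04, 8.22 and 8.43 in tertiary gliomas and of 9.28, 9.12, 9.55 and 9.15 in secondary gliomas, with no overlap. It was called lower without tertiary glioma 1 (adjusted p = 0.0174). The list mean did not overlap between the groups for the mismatch and base excision genes (lowest tertiary 6.92, highest secondary 6.91). The same held for the nucleotide excision genes (lowest tertiary 8.24, highest secondary 8.20), while the means of the other lists overlapped.

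Of 18 transcripts that the damage-responsive factor p53 induces, 1 was called lower and none higher. Over all genes tested, 6.33% were called lower and 1.04% higher. The log2 fold change was below 0 in 14 of the 18 (median -0.30), against 5688 of all 14453 genes. Pmaip1, which encodes the death-promoting protein Noxa, had log2 values of 5.62, 6.33 and 5.04 in tertiary gliomas and of 7.75, 7.71, 8.26 and 7.80 in secondary gliomas (-2.22 ± 0.30, adjusted p = 0.00312), and its adjusted p was at most 0.0130 when any 1 sample was left out. The cell cycle inhibitor Cdkn1a was at -0.45 ± 0.28 (adjusted p = 0.369), with values of 9.74, 9.01 and 8.60 in tertiary gliomas and of 9.92, 9.70, 9.33 and 9.34 in secondary gliomas. Mdm2, the ligase that degrades p53, was at -0.14 ± 0.16 (adjusted p = 0.635). The microglial markers were lower in the same samples, with tertiary means between 6.15 and 7.06 and secondary means between 10.42 and 11.19, and their part in the p53 target values was not tested.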

How the data were processed

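The deposited values are log2 signals of single probes that the authors made with RMA, per the submitters' processing notes; neither its version nor the software is given in the sources used here. RMA equalises arrays and compresses dim probes. Scanner files and scan dates were not used here, so no batch was tested. Of 45101 probes, 34945 carried 1 gene symbol in the platform annotation, 932 several and 9160 none, and 64 were controls; 34741 of the named probes were found in the gene table of GRCm38.p6, and 0 symbols needed updating. Of 18193 genes, each read by its brightest probe, 14453 passed the dim filter.

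Tertiary were compared with secondary gliomas in limma 3.58.1 (lmFit, eBayes; R 4.3.3) without covariates. P-values were adjusted by Benjamini-Hochberg over all 14453 genes, and a gene was called at an adjusted p under 0.05. Fold changes are tertiary minus secondary on the log2 scale. The steps were tested on simulated data. Genes and lists were chosen with earlier results of these data known. Values by sample are given for the gene of lowest p in each pathway and for a fixed set (Atm, Atr, Chek1, Chek2, Brca1, Brca2, Fancd2, Prkdc, Parp1, Xpc and Mgmt, with some items not reported here); those of other genes were added after seeing them. Of the other lists, the called genes of lowest p, or the 1 of lowest p, are named, and Cdkn1a, Mdm2 and the marker names were added. Alternatives were averaged probes, no dim filter or one at the 50th percentile, quantile normalization, median centring, trended or robust variance, array weights, a replicate block, an adjusted p under 0.10, single probes, and each sample left out in turn. Tables were read with pandas 2.3.3 in Python 3.11.15, and figures drawn with matplotlib 3.10.9.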

Additional observations from a re-analysis of the deposited data

Results flagged for a closer look

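In each of 57 genes the highest and the lowest of the 4 secondary gliomas were compared with the others by Dixon's ratio, which chance passes in about 1 of 20 groups, and 4 genes had a sample far from the rest. Ercc2 was at 5.89 in secondary glioma 2, below an equal value of 6.04 in the other 3. Ercc3 was at 7.16 in secondary glioma 1, above values between 6.77 and 6.81. Fancl was at 6.89 in secondary glioma 3, below values between 7.26 and 7.32. Rad51d was at 6.03 in secondary glioma 4, above values of 5.84 in the other 3. The tertiary gliomas, a group of 3, were not tested in this way.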

How the results depend on the processing

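Of 869 values of single repair genes under 16 alternatives, 807 kept their sign and their side of the threshold, 30 were called where they had not been and 32 had the opposite sign, in 12 genes. In all, 17 of the 57 genes were called under at least 1 alternative. The count of repair genes called higher was 2 with all probes averaged (Atm and Msh3), 1 each with a dim filter at the 50th percentile, quantile normalization, median centring and an adjusted p under 0.10, 11 with array weights and between 0 and 14 when 1 sample was left out; it was 0 under the other alternatives, and no repair gene was called lower under any. Of the 106 other damage genes, 12 were called with array weights, 3 at an adjusted p under 0.10, 0 with a replicate block and between 0 and 21 when 1 sample was left out. The median of homologous recombination lay between 0.23 and 0.83 when 1 sample was left out. Over all 14453 genes, 1066 were called, against 1857 without tertiary glioma 1, 647 and 653 without tertiary glioma 2 or 3, 1933 with array weights (lowest weight 0.38, tertiary glioma 1) and 636 with a replicate block. No scaling moved the median of all genes by more than 0.04.

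The 12 genes with an opposite sign were uncalled under every alternative that turned them. With all probes averaged Fancl was at -0.19, Lig3 at 0.30 and Xrcc3 at -0.21; with quantile normalization Ercc6 was at 0.074, Fancl at -0.0072, Mgmt at 0.033 and Prkdc at 0.025; with array weights Ercc4 was at -0.17 and Prkdc at 0.18; with a replicate block Ercc6 was at 0.010 and Pms2 at -0.12. With 1 sample left out, values lay between -0.13 and 0.068 (Ercc6), -0.040 and 0.24 (Mlh3), -0.21 and 0.29 (Prkdc), -0.0090 and 0.85 (Bard1), -0.22 and 0.29 (Fancl), -0.043 and 0.69 (Palb2). They lay between -0.13 and 0.44 (Parp1), -0.085 and 0.19 (Xrcc3), -0.24 and 0.12 (Mgmt), -0.031 and 0.48 (Ercc4), -0.12 and 0.22 (Pms2). The causes were not tested.

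Same-numbered samples of the groups had deviations correlated at 0.04, -0.14 and 0.01. The labels do not say whether the numbers pair samples, and correlations in so few samples cannot settle it. No repair gene was called in the main fit or with the replicate block, which left out the secondary glioma without a same-numbered tertiary one. Probes near the dim filter have compressed differences.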

Other observations

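Some deposited values repeat exactly between arrays. Of the 57 genes, 15 (26.3%) had an equal value on at least 2 arrays, against 35.5% of all 18193 genes, and 4 had one on at least 3 arrays. Brca2 was at 5.46 in tertiary glioma 1 and secondary gliomas 2 and 4, Ogg1 at 7.16 in tertiary glioma 3 and secondary gliomas 1 and 2, Pms2 at 7.18 in tertiary glioma 1 and secondary gliomas 2 and 3, and Ercc2 at 6.04 in secondary gliomas 1, 3 and 4. No pair of arrays shared more than 5.39% of all probe values.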
